A study of Mus musculus with 2 samples.

Results

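Nuclear receptors and the coregulators that work with them were examined in intestinal epithelial cells as 44 genes chosen by name, 36 receptors and 8 coregulators. They were found by the gene name in the array's annotation, and all 44 were among the 34797 gene names of the array, with 79 of its 55681 non-control probes. Probes of a gene were kept apart throughout and are numbered by their brightness on the vehicle array. Of these genes, 19 had 1 probe and 25 had several.

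The RNA came from wild-type male mice. Intestinal segments were kept for 2 h in 0.5 µM cholic acid, a primary bile acid, or in vehicle, which held DMSO at 0.05% and ethanol at 0.25%, after which RNA of the epithelial cells was isolated and hybridised, 1 sample per condition, to a one-colour Agilent array. The labels give neither the number of mice nor their age or strain, and they name the solvent for the vehicle alone. The part of the intestine is not stated beyond the wording S_I_Segment in the sample titles. The series title places the work among searches for genes that depend on bile acids and PPARα. With 1 array per group no p-value or standard error can be given, no difference has a replicate check, and each comparison below is between these arrays.

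Nuclear receptors are transcription factors, many of which are switched by small lipid-soluble ligands such as fatty acids, retinoic acid, thyroid hormone, oxysterols and steroids. Several of them, including the PPARs, RARs, LXRs, PXR and CAR, bind DNA as a dimer with an RXR, whereas HNF4 binds as a homodimer without needing an added ligand. Bound receptors recruit corepressors such as NCOR1 or coactivators such as the NCOA proteins, PGC-1 and MED1, which links them to RNA polymerase. In the intestine HNF4α and HNF4γ maintain enterocyte genes, and PPARs, LXRs, PXR and CAR regulate genes for fat, sterol and drug handling.

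The measurement rests on 60-base probes, so the probes are shown first for the genes on which the results turn. Each line gives bases 1 to 30 of the probe, 5′ to 3′, with no base marked, and positions are those of the whole probe in mm9. Hnf4a (chr2:163398548-163398607) and Hnf4g (chr3:3657265-3657324) are the HNF4 pair, Rora 1 (chr9:69226774-69226833) is the member with the largest positive difference among probes measured on both arrays, the Rxrg probes (chr1:169569496-169569555 and chr1:169569624-169569683) differ in detection although their starts lie 128 bases apart, and the 3 Ppara probes (chr15:85632110-85632169, chr15:85632534-85632593 and chr15:85637193-85637252) measure the receptor named in the series title. Whether a probe lies in coding sequence or in a UTR was not analysed here. No probe of a member shared 25 bases with a probe of another gene on the array (0 of 79).
Hnf4a: ggggtaaaaaagagaaaaagccctcaaaaa
Hnf4g: caaggcttcttcatggtgctgttataagat
Rora 1: gcgcccgagcacttctagaacatctggagt
Rxrg 1: ctggcctcccttcctgtccccaaaatgtga
Rxrg 2: aggtctttccggcagttcttgggaagagtg
Ppara 1: ctttgaaaacctacaagtcaaggtgtggcc
Ppara 2: aaatgctcctctaggcccctcctttggcag
Ppara 3: cctgtaagctgatgaatgtaaagagttaat

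In the epithelium 54 of the 79 member probes (68.4%) stood well above background with vehicle and with cholic acid alike, a flag that the scanner software sets for each spot, against 40.6% of all non-control probes. They stood for 34 of the 44 genes, namely 26 of 36 receptors and 8 of 8 coregulators. For 9 genes no probe was well above background on either array: Rarb, Rorb, Nr2e1, Nr2e3, Nr2f1, Esr1, Esrrg, Pgr and Nr0b1. For Esrrb, 1 probe was so with vehicle alone. The 22 member probes that were not well above background on either array had signals from 2.97 to 13.6 (vehicle) and from 2.77 to 15.3 (cholic acid). Among the 54 others, 20 had a vehicle signal over 1000, 21 between 100 and 1000, and 13 under 100. Signals are in the scanner's intensity units and depend on the probe as well as the RNA, so they do not rank one gene against another.

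**Figure D1:**
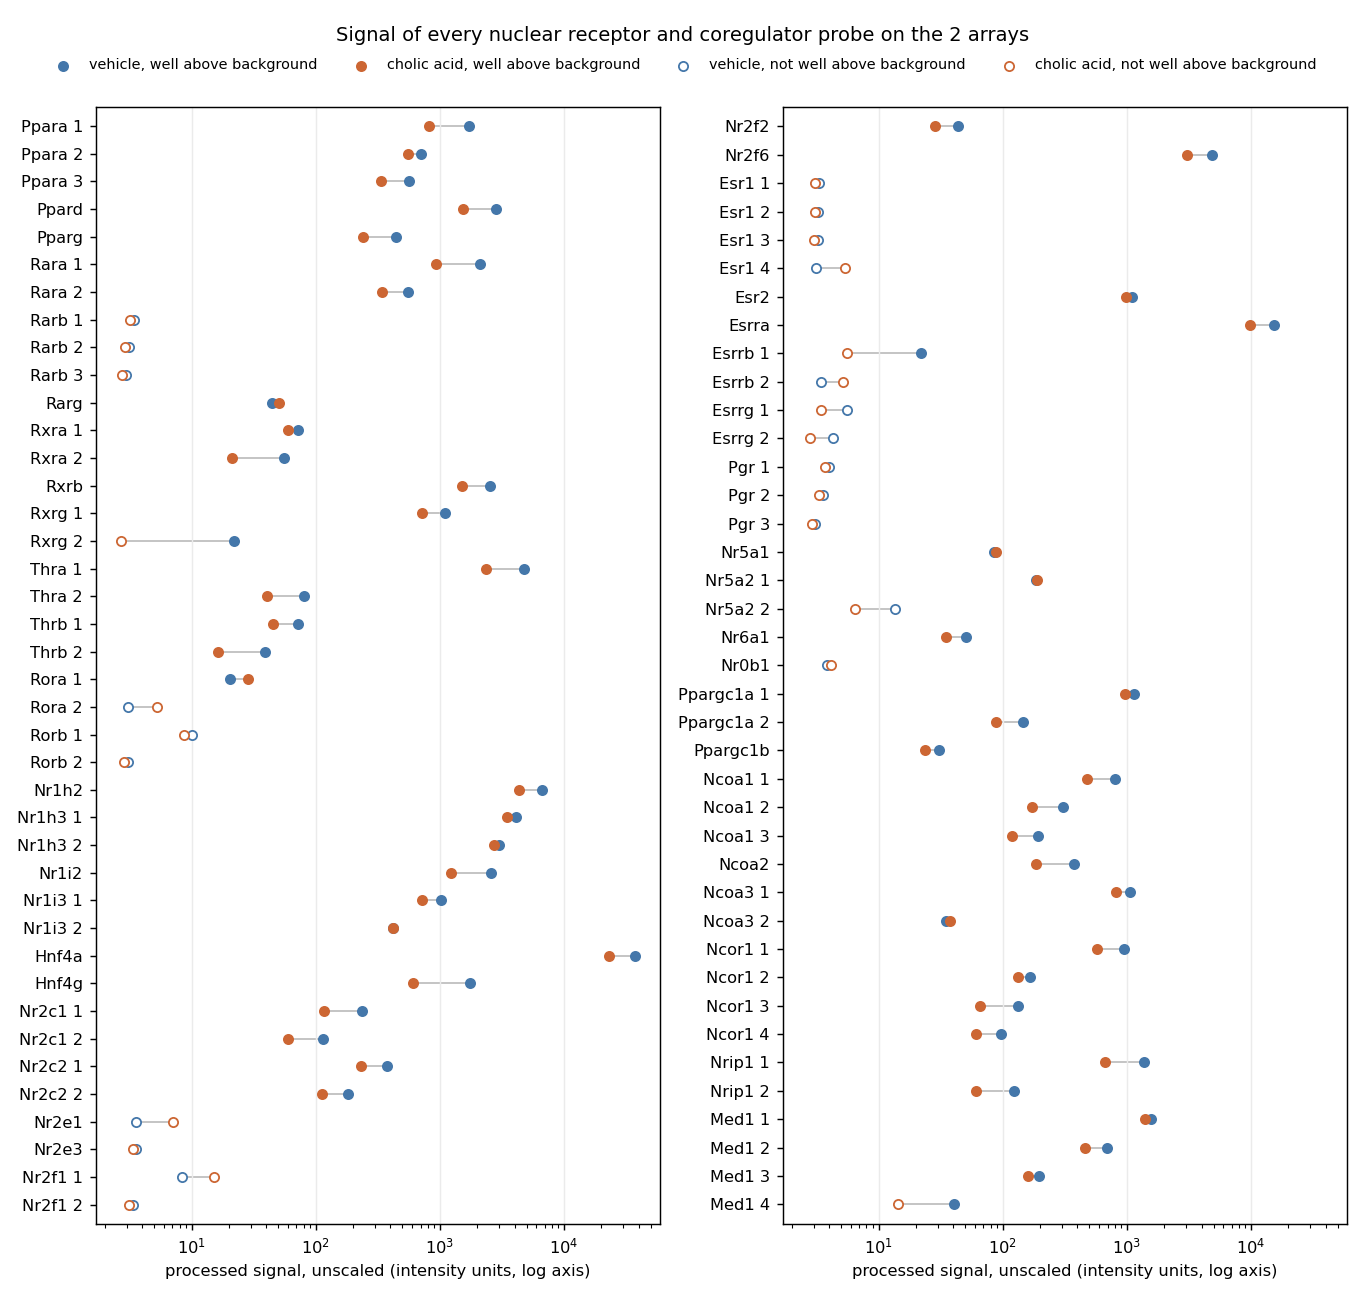
Unscaled processed signal of each of the 79 probes (log axis, intensity units) with vehicle (blue) and with cholic acid (orange), 1 row per probe and 1 point per array; filled points were well above background and open points were not. The cholic acid point lies to the left of the vehicle point for 49 of the 54 probes detected on both arrays. The 75th percentile of the array was lower there too, at 741 against 1060, and so were at least 75% of all probes detected on both arrays.

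Unscaled signals were lower on the cholic acid array for 49 of those 54 probes and higher for 5, but the array as a whole was dimmer. Over the probes detected in this sense on both arrays the 75th percentile was 1060 with vehicle and 741 with cholic acid, a log2 difference of -0.52. That percentile was therefore set equal before arrays were compared, and each log2 difference given from here on is cholic acid minus vehicle after this scaling. Over the 22613 probes detected on both arrays the upper quartile was 0.48, under the 0.52 that the scaling added. So at least 75% of all such probes were also lower on the cholic acid array before scaling. The median of the 22613 probes was 0.13 here, and moved by between -0.23 and 0.11 in the 6 alternatives. Of these, 2 (the percentile taken over all probes, and median centring) move every probe by the same amount, and the rest move dim and bright probes differently. A sign is said to have been kept where it was the same in all 6 alternatives, and an exception is named where there was one.

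Scaled differences of the members were small. Their median was -0.17, against 0.13 for all probes, and 37 of 54 lay below the median of all probes. At least 2-fold higher in cholic acid was 1 of 54 (Rora 1), where 7.08% of all such probes were, and at least 2-fold lower was 1 of 54 (Hnf4g), where 1.94% were. Of all probes at least 2-fold apart 78.5% were higher in cholic acid in this scaling, and between 50.3% and 77.1% in the alternatives. The receptors alone had a median of -0.17 over 36 probes, and the coregulators -0.18 over 18. Relative to all probes the member median was lower by 0.29 in the scaling used, a margin that the constant shifts cannot change. It was -0.23 with quantile normalization, with loess and in the authors' values, and -0.28 with normexp. Dim probes had a median of 0.27 over the whole array and bright ones 0.01 (split at the median signal), and the members lay lower in both parts, with medians of -0.16 over 21 dimmer and -0.17 over 33 brighter probes.

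**Figure D2:**
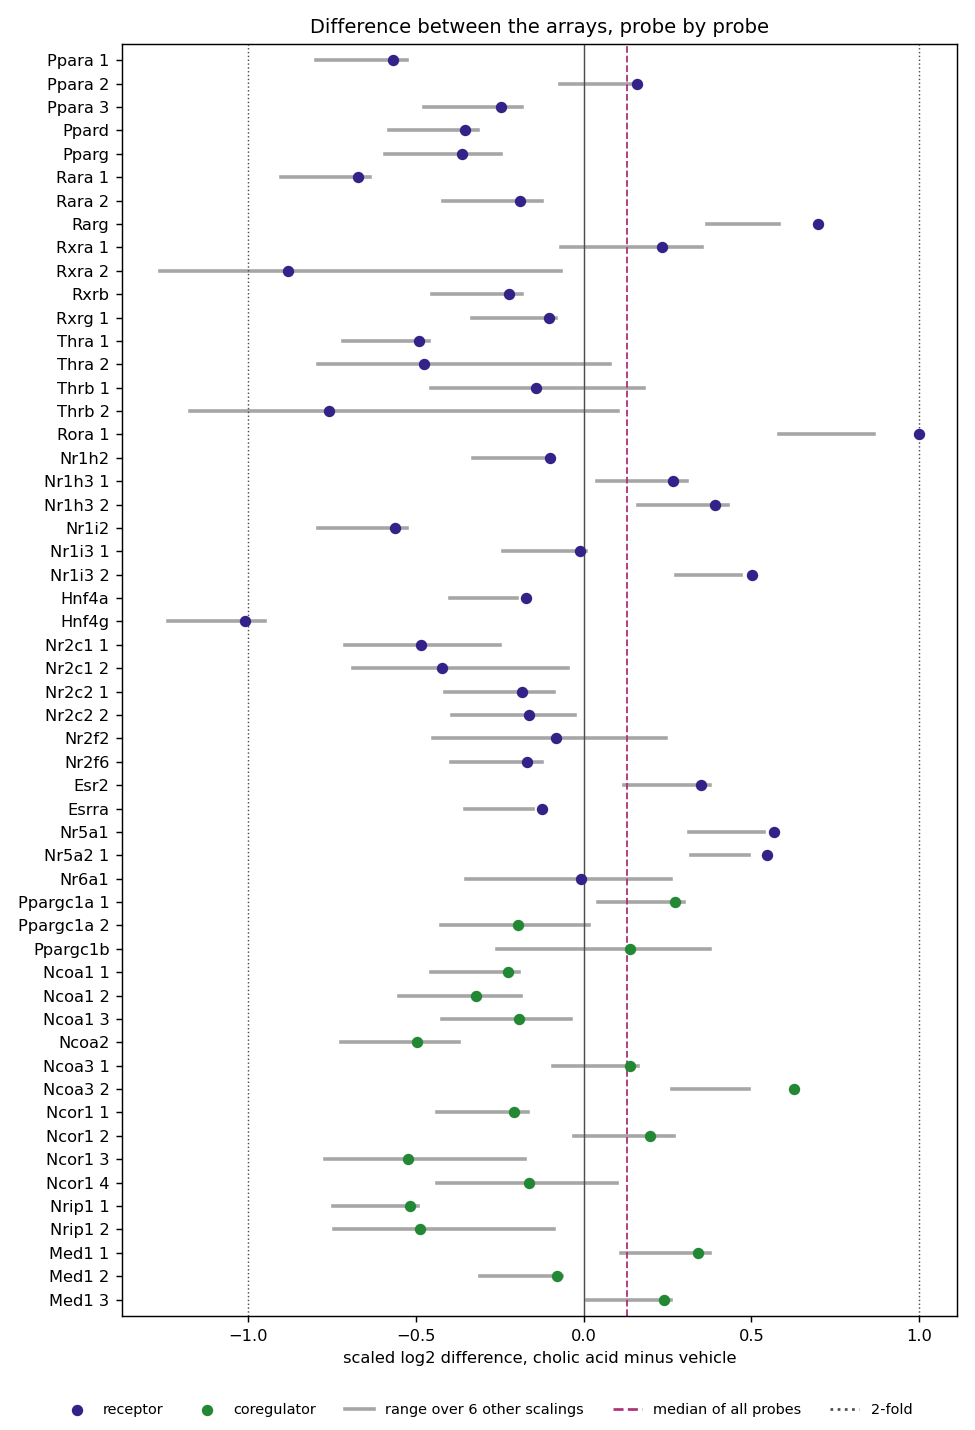
Scaled log2 difference, cholic acid minus vehicle, of the 54 member probes detected on both arrays (points: purple for receptors, green for coregulators), with the range over the 6 other scalings or sources of values as a grey bar, the median of all probes as a dashed line and 2-fold as dotted lines. Hnf4g at -1.01 and Rora 1 at 1.00 reach the 2-fold lines, and 37 points lie left of the dashed line.

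The HNF4 receptors, which bind many enterocyte genes, gave the member with the largest negative difference among probes measured on both arrays. The Hnf4g probe had a signal of 1740 with vehicle and 604 with cholic acid, a log2 difference of -1.01, or 2.01-fold lower. Among the 1000 probes nearest to it in signal the median difference was -0.05 and the spread (robust SD) 0.41. Its sign was kept, and its value ran from -1.24 to -0.95 in the alternatives, past 2-fold in 4 of the 6. The Hnf4a probe had a signal of 37200 with vehicle and 23100 with cholic acid, a log2 difference of -0.17, with the sign kept. Both members of the pair were therefore lower after scaling, Hnf4g past 2-fold and Hnf4a not, and the difference between their changes was not tested.

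The 3 PPARs, sensors of fatty acids and their derivatives, were well above background with every probe. Ppara 1 had signals of 1720 and 811 (vehicle and cholic acid, in this order from here on), Ppara 2 of 711 and 554, and Ppara 3 of 568 and 335. Their log2 differences were -0.57, 0.16 and -0.25. The middle value was below 0 in 1 of the 6 alternatives and the other signs were kept, so the probes of Ppara do not give it 1 direction. Ppard, the form found in most tissues, had signals of 2830 and 1550 and a log2 difference of -0.35. Pparg, the form best known from fat cells, was spotted 10 times, with spots from 411 to 477 (median 442) with vehicle and from 223 to 274 (median 237) with cholic acid. The spots of the arrays did not overlap before scaling, but there the cholic acid array was dimmer as a whole, and spots repeat the measurement alone. After scaling the log2 difference of Pparg was -0.36, with the sign kept for Ppard and Pparg.

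Among the retinoic acid receptors, Rara was measured with signals of 2110 and 925 (probe 1) and 555 and 340 (probe 2). Its log2 differences were -0.67 and -0.19, with both signs kept. Rarg was dim, at 44.6 and 50.6, and its log2 difference was 0.70, 1.62-fold higher, with the sign kept. Rarb had 3 probes, at most 3.45 with vehicle, and none was well above background.

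The RXRs are the shared dimer partners. Rxrb had signals of 2520 and 1510 and a log2 difference of -0.22, with the sign kept. The 2 Rxra probes were dim and opposed each other: probe 1 had signals of 72.3 and 59.4 (log2 difference 0.23) and probe 2 of 55.6 and 21.1 (-0.88). The sign of probe 1 was positive in 3 of the 6 alternatives, and the value of probe 2 ran from -1.26 to -0.07. Rxrg 1 had signals of 1100 and 716 and a log2 difference of -0.10, with the sign kept. Rxrg 2, whose sequence is printed above beside it, had 22.1 with vehicle and 2.72, not well above background, with cholic acid. A probe detected on only 1 array has a bound: its scaled signal is set against the lowest scaled signal of any detected probe of the other array, or its own there if that is higher. For Rxrg 2 this gave at least 1.38-fold lower in cholic acid in the scaling used, and its log2 difference ran from -2.96 to -0.04 in the alternatives. The lowest detected signal with cholic acid (11.2 before scaling) is no strict limit, since Med1 4 was brighter there (14.4) and not detected.

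Promoter windows of Rxra and of Pparg, whose products can pair, are printed to show in sequence a DNA element that these receptors read. The windows hold the 250 bases before an annotated start from RefSeq (GRCm38), 5′ to 3′ on the gene's strand, with the receptor half-site AGGTCA or its reverse complement in capitals. They are an Rxra start (chr2:27709042-27709291, plus strand) and a Pparg start (chr6:115362099-115362348, plus strand). The Rxra window holds 2 half-sites and the Pparg window 1. Among the windows of these genes that are not printed, that of Rxra held 0 and those of Pparg 1 and 0. The half-site, searched on both strands, was in 9 of 61 such windows of members (14.8%), from 38 genes with a window, and in 4607 of all 32851 windows, a share close to that of the members. The direct repeat AGGTCANAGGTCA, searched on both strands and containing the half-site, was in 0 of the 61 and in 0.0335% of all. Matches describe the sequence alone.
Rxra: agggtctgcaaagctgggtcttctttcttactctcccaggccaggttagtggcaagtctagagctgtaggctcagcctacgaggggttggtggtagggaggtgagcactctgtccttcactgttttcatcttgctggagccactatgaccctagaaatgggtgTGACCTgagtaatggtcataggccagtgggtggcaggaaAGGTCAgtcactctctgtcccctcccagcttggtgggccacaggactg
Pparg: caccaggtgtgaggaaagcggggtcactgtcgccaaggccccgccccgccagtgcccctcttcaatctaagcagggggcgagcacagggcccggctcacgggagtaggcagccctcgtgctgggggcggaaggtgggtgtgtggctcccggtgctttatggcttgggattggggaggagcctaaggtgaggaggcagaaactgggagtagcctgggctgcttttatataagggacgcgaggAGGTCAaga

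Thyroid hormone receptors were lower with all 4 probes in the scaling used, where 8978 of the 22613 probes detected on both arrays had negative differences. Thra 1 had signals of 4720 and 2350 (log2 difference -0.49, sign kept), and Thra 2 of 81.1 and 40.8 (-0.47). Thrb 1 had signals of 71.4 and 45.2 (-0.14), and Thrb 2 of 39.2 and 16.2 (-0.76). Except for Thra 1, each turned positive in 1 of the 6 alternatives, and Thrb 2 ran from -1.17 to 0.10. For Rora, a receptor of the clock and of lymphoid cells, probe 1 had signals of 20.3 and 28.4, a log2 difference of 1.00, or 2.00-fold higher. The 1000 probes nearest to it had a median of 0.35 and a spread of 0.51. Its sign was kept, but it lay under 2-fold in all 6 alternatives, from 0.58 to 0.87. Rora 2 (3.08 and 5.30) and both probes of Rorb (at most 10.1 with vehicle) were not well above background.

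The oxysterol receptors, LXRβ and LXRα, had bright probes. Nr1h2 had signals of 6670 and 4350 and a log2 difference of -0.10. Nr1h3 had signals of 4100 and 3450 (probe 1) and 2990 and 2740 (probe 2), with log2 differences of 0.27 and 0.39. All 3 signs were kept, with the 2 genes on opposite sides of 0. Of the drug-sensing receptors, Nr1i2 (PXR) had signals of 2600 and 1230 and a log2 difference of -0.56, with the sign kept. Nr1i3 (CAR) had signals of 1030 and 714 (probe 1, -0.01) and 422 and 418 (probe 2, 0.50). Probe 1 was positive in 1 of the 6 alternatives and the sign of probe 2 was kept.

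The other receptors of the NR2 group, mostly orphans without a known natural ligand, had 6 of 10 probes detected on both arrays. All 6 had negative differences, against 8978 of 22613 over all probes, and they came from Nr2c1, Nr2c2, Nr2f2 and Nr2f6 alone. Nr2c1 and Nr2c2, the testicular receptors TR2 and TR4, had 2 probes each, between -0.48 and -0.16, with the signs kept. Nr2f6 had signals of 4900 and 3050 (-0.17, sign kept). Nr2f2, known from mesenchyme and veins, was dim at 43.3 and 28.6 (-0.08, positive in 1 of the 6 alternatives). Nr2f1 (8.37 and 15.3 for probe 1), the retinal receptor Nr2e3 and the neural receptor Nr2e1 were not well above background.

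Among steroid receptors and their relatives, signal came from few probes. Esr2, the estrogen receptor β, had signals of 1100 and 979 and a log2 difference of 0.35, with the sign kept. Esr1, the estrogen receptor α, had 4 probes of at most 3.33 with vehicle, and Pgr, the progesterone receptor, 3 probes of at most 3.98, none of them well above background. Esrra, which works with PGC-1 on mitochondrial genes, had signals of 15300 and 9810 (-0.12, sign kept). Esrrb 1 was well above background with vehicle alone (22.0 and 5.61), at least 1.37-fold lower in the scaling used. Its difference was negative in 5 of the 6 alternatives and reached 0.16. Neither probe of Esrrg was well above background. Nr5a2 (LRH-1), which drives steroid and bile acid synthesis genes, had signals of 184 and 188 with probe 1 (0.55, sign kept), and probe 2 was not well above background (13.6 and 6.46). Nr5a1 (SF-1), known from steroid-producing glands, had signals of 84.9 and 88.0 (0.57, sign kept), and the germ cell factor Nr6a1 of 50.6 and 35.2 (-0.01, positive in 1 of the 6 alternatives). Nr0b1 (DAX-1), a repressor of SF-1, was spotted 10 times with medians of 3.50 and 3.46 and was not well above background.

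All 6 coactivators were measured. Ppargc1a (PGC-1α), which raises mitochondrial and fatty acid oxidation genes, had signals of 1150 and 971 with probe 1 (0.27, sign kept) and of 145 and 88.5 with probe 2 (-0.20, positive in 1 of the 6 alternatives). Ppargc1b had signals of 30.7 and 23.6 (0.14, positive in 2 of the 6 alternatives). The p160 coactivator Ncoa1 had 3 probes between -0.32 and -0.19, with all signs kept. Its relative Ncoa2 had signals of 377 and 187 (-0.50, sign kept), and Ncoa3 of 1070 and 823 (0.14) and of 35.1 and 37.9 (0.63, 1.54-fold higher). The sign of the first Ncoa3 probe turned in 1 of the 6 alternatives and that of the second was kept. Med1, the Mediator subunit that receptors bind, had 4 probes. Med1 1 had signals of 1570 and 1390 (0.34), Med1 2 of 692 and 458 (-0.08) and Med1 3 of 195 and 161 (0.24), with all signs kept. Med1 4 had 40.7 with vehicle and 14.4, not well above background, with cholic acid. By the rule given for Rxrg 2 its own signal there was used, so 1.98-fold lower is its scaled ratio and no bound. Its difference was negative in 5 of the 6 alternatives and reached 0.08. So the Med1 probes lay on both sides of 0.

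The corepressors were lower with 5 of 6 probes, against 8978 of 22613 over all probes. Nrip1 (RIP140), which represses genes of energy use, had signals of 1370 and 669 (probe 1) and 123 and 61.3 (probe 2), with log2 differences of -0.52 and -0.49 and both signs kept. Ncor1, which holds histone deacetylase at unliganded receptors, had signals of 944 and 571 (-0.21), 167 and 134 (0.20), 134 and 65.2 (-0.52) and 97.6 and 60.9 (-0.16). The second and the fourth Ncor1 probe each turned in 1 of the 6 alternatives.

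Different probes of a gene can be set side by side, but they share the RNA, so they are no repeat of the condition. Of 15 genes with several probes detected on both arrays, 9 had all differences on the same side of 0 and 6 had not: Ppara, Rxra, Nr1i3, Ppargc1a, Ncor1 and Med1. The same count over all genes of the array was not made. The span between the probes of a gene had a median of 0.47 and ran from 0.01 (Thra) to 1.11 (Rxra). Where a probe was spotted many times, the spots' SD of the log2 difference had a median of 0.11 over 226 probes, which covers the measurement on an array but not the spread between mice or segments. Of the 54 probes, 37 lay within 1 robust SD of the 1000 probes nearest in signal, and 3 lay beyond 2 (Hnf4g, Rxra 2 and Thrb 2), a description of these arrays and no test. The same shares over all probes were not counted, so these counts do not set the members apart. Over the alternatives Rxra 2 came to -0.07 and Thrb 2 to 0.10.

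Just short of the 2-fold limit on the lower side were Rxra 2 (1.84-fold), Thrb 2 (1.69-fold) and Rara 1 (1.59-fold), of which Rxra 2 was past 2-fold in 5 of the 6 alternatives, Thrb 2 in 3 and Rara 1 in 0, and on the higher side Rarg (1.62-fold) and Ncoa3 2 (1.54-fold). All other member probes measured on both arrays were within 1.5-fold.

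Receptors outside the 44 behaved within a similar range. Of 13 other receptor genes, 9 were measured on both arrays, with a median of -0.25 over 13 probes and 10 of the 13 below the median of all probes. Nr1d1 (REV-ERBα, a clock repressor) was 2.17-fold lower, at 597 and 192. Nr4a2 (NURR1, an immediate early receptor) was higher with both probes, at 105 and 147 (2.00-fold) and at 29.4 and 45.7 (2.22-fold). The first of these Nr4a2 values was under 2-fold in the alternatives, where it reached at most 0.87 on the log2 scale, the second ran from 0.78 to 1.02, and Nr1d1 ran from -1.35 to -0.87. Of 28 other coregulators, 24 were measured, with a median of -0.02 over 37 probes and 1 probe at least 2-fold apart. It was the dimmest of 3 probes of the Mediator subunit Med14 (23.9 and 36.3, 2.17-fold higher, at most 0.99 on the log2 scale in the alternatives), whose other probes had log2 differences of 0.03 (288 and 205) and -0.10 (42.7 and 27.9).

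Genes listed as regulated by these receptors lay lower in most lists. The lists were chosen with earlier results of these data known, so they describe these arrays and give no independent support. Several lists share genes with the members or with each other. The listed targets of HNF4 had a median of -0.61 over 17 probes of 14 genes, 15 of them below the median of all probes. By at least 2-fold, 0 probes were higher and 3 were lower. These were the apolipoprotein Apoa4 (60700 and 12300, 3.45-fold), the dimmer of 2 probes of the transcription factor Maf (92.3 and 25.5, 2.53-fold, where the brighter, at 5880 and 3690, was 1.11-fold lower) and the glucose transporter Slc2a2 (2630 and 918, 2.00-fold). Targets of the PPARs had a median of -0.35 over 18 probes, with 0 higher and 4 lower by at least 2-fold, among them the mitochondrial acylcarnitine carrier Slc25a20 (9500 and 2490, 2.67-fold), 1 probe of Cyp4a10 (3390 and 1020, 2.32-fold) and Cd36 (961 and 295, 2.28-fold). LXR targets had a median of -0.33 over 12 probes, with Srebf1 (35900 and 7950, 3.16-fold) and Abcg8 (449 and 153, 2.05-fold) lower.

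For PXR and CAR the targets had a median of -0.19 over 20 probes, with 1 probe higher and 5 probes of 4 genes lower by at least 2-fold. The cytochromes P450 Cyp3a11 (2.29-fold and 3.41-fold), Cyp2b10 (2.51-fold), Cyp2c29 (2.31-fold) and Cyp2c65 (2.17-fold) were lower, and the aldehyde dehydrogenase Aldh1a7 was 4.02-fold higher. Thyroid hormone targets had a median of -0.18 over 14 probes, where Dio1, a deiodinase, was 2.28-fold and 2.29-fold lower with 2 of its probes. RAR targets had a median of 0.14 over 8 probes, level with all probes, and only Lrat, which esterifies retinol, was 2-fold apart (22.0 with cholic acid, 3.40-fold lower). Relative to all probes these medians stayed lower with quantile normalization, loess, normexp and the authors' values for each list but that of RAR. Among the probes named here as at least 2-fold lower, the smallest log2 difference over the alternatives was -0.51 for Lrat, -0.29 for Maf, -0.81 and -0.26 for the Dio1 probes, -0.74 for Abcg8 and -0.96 for Slc2a2, each under 2-fold, and Cyp2c29 came down to the 2-fold limit itself.

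**Figure D3:**
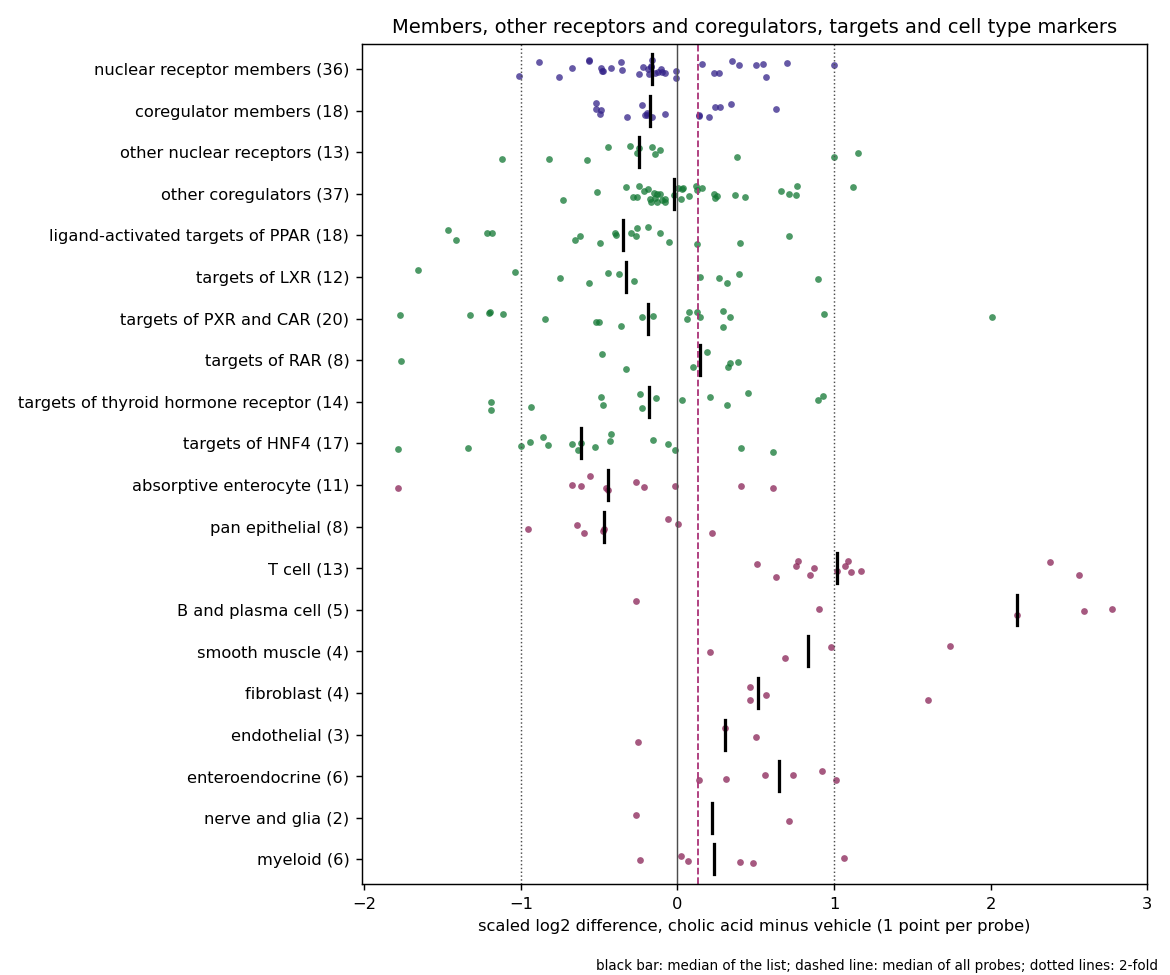
Scaled log2 difference, cholic acid minus vehicle, of each probe detected on both arrays, by list, with the number of such probes in parentheses, the median of the list as a black bar, the median of all probes as a dashed line and 2-fold as dotted lines. Members are purple, other receptors, coregulators and targets green, and cell type markers red. The members lie between -1.01 and 1.00, while HNF4 targets reach -1.79 and T cell markers 2.57.

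The markers of the labelled cell type were present, and markers of other cell types differed between the arrays along with the receptors. All 11 enterocyte markers and all 6 general epithelial markers were detected on both arrays. Their medians were -0.44 over 11 and -0.47 over 8 probes, on the same side as Hnf4g, most corepressor probes and most target lists above. Part of that match is built in, since Anpep, Apoa1, Apoa4, Fabp2, Sis and Vil1 are also HNF4 targets here and Fabp1 a PPAR target. The summed unscaled signal of the general epithelial markers was 348714 with vehicle and 203797 with cholic acid. That of the enterocyte markers was 1.42e+06 and 1.02e+06, on arrays whose 75th percentiles were 1060 and 741. T cell markers had positive differences with all 13 probes measured (median 1.02), 7 of them at least 2-fold, on the same side as Rora, and their summed signal was 18079 and 25305, with none of the 11 markers missing. Of the B and plasma cell markers 4 of 7 were measured, with a median of 2.17 over 5 probes. The brightest of these probes, Blnk, lay at -0.26 (1180 and 687), and the others were positive. Of the smooth muscle markers 4 of 6 were measured (median 0.83), and of the fibroblast markers 4 of 6 (0.51). Medians were 0.65 over 6 probes for enteroendocrine, 0.30 over 3 for endothelial, 0.23 over 6 for myeloid and 0.22 over 2 for nerve and glia markers. All enteroendocrine probes were positive. Each of the other lists in that sentence had 1 negative probe: Pecam1 (-0.25), the brightest Itgam probe (-0.24) and Snap25 (-0.27). Of the myeloid probes 3 lay below the median of all probes. Myh11, Des, Pdgfra, Lum and Ms4a1 were not well above background on both arrays. The part of these cells in the receptor differences was not tested, and in bulk RNA fewer cells of a type and less RNA per cell cannot be told apart.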

How the data were processed

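RNA was labelled with Cy3 after amplification, per the labels' protocols, and read on Agilent array design 028005 with probe positions in mm9, per the file headers. The deposited processed signal is an intensity made by Feature Extraction with spatial and multiplicative detrending and surrogate values turned on, per the file headers, which give version 10.7.1.1, while the submitters' processing notes list 9.5.1.1. Other deposited columns used are flags for each spot. The authors' deposited value table holds intensities for 55681 probes on a linear scale, without a statement of its scaling. Its sorted columns differed by at most 0.0242%, as after quantile normalization, its median was 10.1 on each array, and on the log2 scale Pearson's r with the scanner files, across probes, was 0.99987 and 0.99984.

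Control spots and those flagged as non-uniform or as outliers of their replicates (124 and 119) were left out, and no spot was saturated (0 on each array). The log2 signal of a probe is the mean of its spots, and the probe counted as detected (well above background) unless the majority of its spots were not. From each array was subtracted its 75th percentile over probes detected on both, since these are 40.6% of all. Calls are at least 2-fold, with no test, because there is 1 array per group. The number of arrays limits the precision. Both arrays lay on the same slide and came from the same scan.

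The members and lists were chosen with earlier results of these data known. Named genes were every member and, in other receptor, coregulator and target lists, those at least 2-fold apart, apart from items that are not reported here. Of the accessions, 72 of 79 member probes matched a RefSeq transcript of their gene (GRCm38.p6 table, used for names and promoters). Scaling and calling were tested on simulated data. Python 3.11.15, pandas 2.3.3, statsmodels 0.14.6 (lowess span 0.3) and limma 3.58.1 (normexp, offset 50) were used. Alternatives were other scalings, background correction, the authors' values, filters, probe rules and fold limits.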

Additional observations from a re-analysis of the deposited data

How the results depend on the processing

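The 1 higher and 1 lower member probe rest on the settings. Higher and lower counts were 0 and 2 with the 75th percentile over all probes, with median centring and with loess, 0 and 3 with quantile normalization and in the authors' values, and 0 and 0 (0 in all) with normexp. With probes well above background on at least 1 array, 4 were 2-fold apart, 3 of them lower, and without a filter 9, with 6 higher and 3 lower. The brighter part of the probes held 1, with 0 higher. At 1.5-fold there were 7, with 3 higher and 4 lower, and at 3-fold 0 (0 and 0). The member median of -0.17 was -0.39 with the percentile over all probes, -0.30 with median centring and -0.043 with normexp, and negative in every setting run. Over all probes the higher and lower shares were 3.95% and 3.91% with the percentile over all probes, 4.99% and 2.92% with median centring, 4.45% and 2.98% with loess, 3.94% and 3.32% with quantile normalization, 3.98% and 3.35% in the authors' values and 2.68% and 0.80% with normexp. Over all probes, the share of higher among those 2-fold apart was 78.5%, and 50.3%, 63.1%, 54.3% (quantile), 59.9% (loess), 77.1% (normexp) and 54.3% (authors' values) in the alternatives. Of 54 member probes 41 kept their sign in all 6 scalings. No paired analysis was possible because there is 1 array per group. Leaving out an array leaves no comparison. Signals near background limit the dim members most.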

Other observations

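Nr5a1 and Nr6a1 are neighbours on the genome (RefSeq order, GRCm38.p6), the only adjacent pair among the 44 genes. Both were well above background on both arrays, with log2 differences of 0.57 and -0.01.

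Without a filter on detection, 6 member probes were at least 2-fold higher, and for 5 of them neither array was well above background: Rora 2, Nr2e1, Nr2f1 1, Esr1 4 and Esrrb 2. The Nr2e1 probe, for example, had signals of 3.58 and 7.10.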
